A study of Mus musculus with 32 samples.

Results

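The comparison described here set cells sorted as meningeal lymphatic endothelial cells (mLECs) from WT mice against the whole meninges of WT mice, in 8 of the 32 samples of the study, 4 in each group. The WT mice were littermates of 5xFAD mice that did not carry the transgenes, male, 6 months of age and untreated, and each sample came from 1 mouse. For the mLEC samples the meninges were digested with collagenase VIII and DNase I, live cells negative for CD45 and positive for CD31 (the protein of Pecam1) and PDPN were sorted by flow cytometry, and the cells were lysed without purifying RNA. For the meninges samples, RNA was extracted from the intact tissue with TRIzol. Both kinds of material became Smart-seq2 libraries, in which full-length cDNA is amplified before sequencing. The sort, the digestion and the library input all differ between the groups, so that their contributions cannot be told apart. Each value below is FPKM, a level scaled to transcript length and library size, unless it is called a log2 fold change, which is a difference between the groups and is positive where mLECs were higher.

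The meninges wrap the brain in layers of fibroblasts that hold blood vessels, resident macrophages and, in the dura, lymphatic vessels. Lymphatic endothelial cells line those vessels. They share a general endothelial program with blood vessels. Markers used to tell lymphatic from blood endothelium include the transcription factor PROX1 and the receptors encoded by Flt4, for VEGF-C, and Lyve1, for hyaluronan. Another is the chemokine encoded by Ccl21a, which draws dendritic cells and T cells into lymphatics. CD31 is present on blood and lymphatic endothelium, and PDPN on lymphatic endothelium and on many fibroblasts.

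The sorted cells carried endothelial transcripts, but the lymphatic markers Lyve1 and Prox1, and the gate gene Pdpn, were each detected in only some of the libraries. Pecam1 (ENSMUSG00000020717, chromosome 11 from 106654217 to 106750628, - strand) had levels of 342, 189, 325 and 247 in mLEC samples 1 to 4 and of 18.1, 14.4, 17.1 and 7.09 in meninges samples 1 to 4. Pdpn had levels of 26.7, 0, 11.2 and 0 in the mLEC samples and of 86, 89.5, 76.5 and 83.1 in the meninges, so that each mLEC sample lay below each meninges sample. Both proteins were used for sorting, and these levels are given as a description. Lyve1 stood at 34, 0, 2.56 and 0 in mLECs against 9.71, 5.64, 4.99 and 4.18 in meninges. Prox1, the defining lymphatic transcription factor, stood at 0, 0, 1.95 and 5.71 against 0.19, 0.18, 0.78 and 0.36 and was too low to be tested. Samples 2 and 4 thus had no reads of Pdpn or Lyve1, and samples 1 and 2 none of Prox1. The pan-leukocyte gene Ptprc, which encodes CD45, and the myeloid integrin gene Itgam were at 0 in all 4 mLEC samples, against 11.8 to 21.7 and 0.93 to 2.46 in meninges. The samples are therefore called sorted CD45- CD31+ PDPN+ cells or, as in the labels, mLECs, without the claim that each library holds lymphatic cells.

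Total counts ran from 16033785 to 24041115 in mLECs and from 6601143 to 14541203 in meninges. Despite the greater depth, 5998 to 9020 genes had a count above 0 in an mLEC sample and 17427 to 19769 in a meninges sample (difference of the means -11044, exact two-sided permutation test, p = 0.0286, the smallest p that 4 against 4 samples can give). Replicates were less alike in mLECs, with a Spearman correlation across genes of 0.583 to 0.684 between samples, against 0.908 to 0.95 in meninges. The biological coefficient of variation was 1.35 in mLECs and 0.334 in meninges. In bulk samples, fewer cells of a type and less RNA per cell cannot be told apart.

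More genes were called lower than higher in mLECs, and this balance depended on which genes entered the test. Of 13257 genes tested with edgeR's quasi-likelihood test, 682 were higher (5.14%) and 4191 lower (31.6%) in mLECs. A call needed an adjusted p under 0.05 and a difference of 2-fold or more. The counts in the lists below are read against these shares. Every adjusted p given with a log2 fold change is from this test. The median log2 fold change over all tested genes was -1.29, and it ran from -1.56 to -1.13 over the other scalings of the libraries, so that list medians below are read against it. Among the genes tested, 3132 had no count in any mLEC sample. Every mLEC sample lay above every meninges sample for 626 genes (4.72%) and below for 5872 (44.3%). Of the tested genes, 8912 reached an FPKM of 1 in at least 3 samples of the meninges alone and 53 of the mLECs alone. Among the 4147 that did so in each group, a filter chosen after seeing the data, the balance turned to 441 higher and 191 lower, and the median was 0.24. Without mLEC sample 2 the counts over all tested genes were 863 higher and 4492 lower, and without sample 4 they were 862 and 4833.

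**Figure D1:**
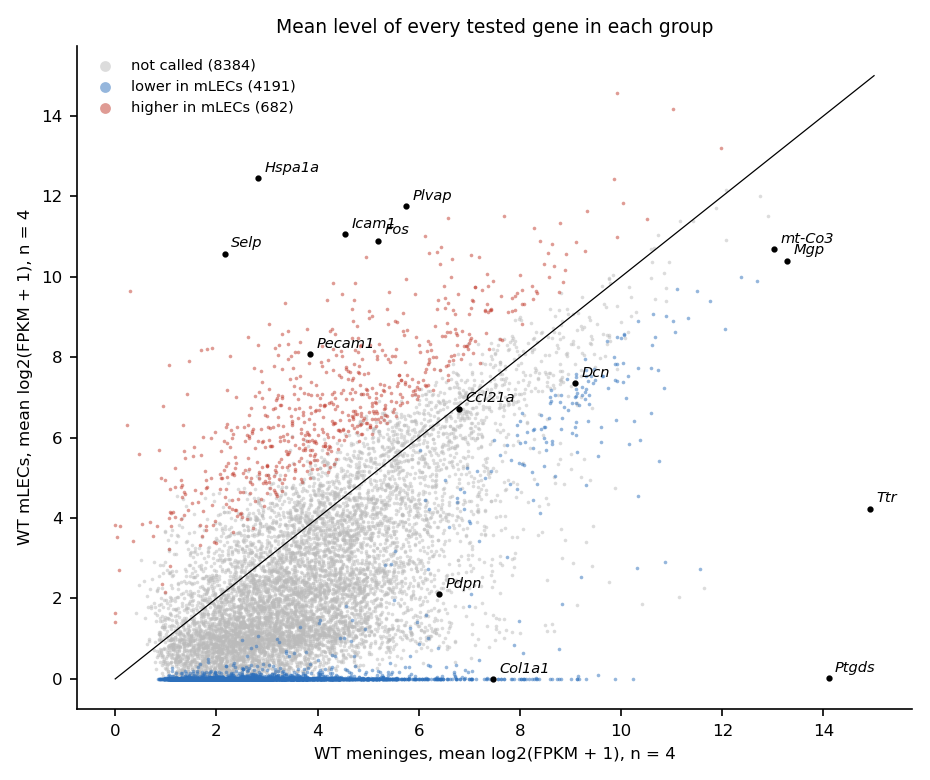
Each point is 1 of the tested genes, with its mean level in WT meninges on the x axis and in WT mLECs on the y axis, both as log2(FPKM + 1); genes called higher, called lower or not called are coloured. The 4191 genes called lower lie under the diagonal, many of them at 0 in mLECs, and the 682 called higher lie above it.

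General endothelial genes rose almost as a block. Of the 18 pan-endothelial genes tested, 15 were higher in mLECs and 0 lower, and the median log2 fold change was 4.39, where that of all tested genes was -1.29. The cells were sorted for CD31, an endothelial protein, and its gene Pecam1 is in this list. The counts of this list and of the blood endothelial list below are therefore a description of sorted cells. Egfl7, which encodes a matrix protein secreted by endothelium, had levels of 959, 1538, 2175 and 844 in mLECs and 60.6, 102, 81.9 and 99.98 in meninges (log2 fold change 4.42, standard error 0.40, adjusted p = 0.000563). Emcn, an endothelial sialomucin gene, had levels of 837, 948, 537 and 896 against 44.1, 47.3, 49.5 and 28.7 (log2 fold change 4.49, standard error 0.33, adjusted p = 0.000531). Clec14a, an endothelial cell surface lectin gene, had levels of 487, 541, 289 and 279 against 9.07, 13, 8.91 and 5.7 (log2 fold change 5.71, standard error 0.43, adjusted p = 0.000563). For these 3 genes no mLEC sample overlapped the meninges. Cdh5, which encodes the adherens junction protein VE-cadherin, was steady between replicates at 87.6, 83, 82 and 57.3 against 7.71, 8.78, 7.17 and 7.3 (log2 fold change 3.61, standard error 0.38, adjusted p = 0.000563). Pecam1, used in the gate, had a log2 fold change of 4.53. Eng, a TGF-beta co-receptor gene, Esam and Cd34, 2 genes of endothelial surface proteins, and Ecscr, Kdr, Fli1, Tek, Tie1 and Cldn5 were also higher, with log2 fold changes of 4.61, 4.37, 4.73, 3.61, 4.95, 3.61, 4.76, 3.99 and 3.74. Robo4 passed as well (log2 fold change 4.63, standard error 1.25, adjusted p = 0.0183), although mLEC sample 2 stood at 1.05, below every meninges sample, and kept its call in 16 of 20 alternative settings. Ramp2, Sox17 and Erg did not pass (adjusted p = 0.307, 0.0982 and 0.203). Sox17, a transcription factor gene of arteries, ranged from 0.03 in mLEC sample 1 to 172 in sample 2. Tal1 was too low to be tested.

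Genes listed as markers of blood endothelium rose with them. Of 20 tested, 13 were higher and 0 lower, with a median log2 fold change of 3.29. Without mLEC sample 2 there was 1 lower gene, and without sample 3 there were 2. Plvap, which encodes the diaphragm protein of fenestrated endothelium, had levels of 5181, 3672, 3375 and 2226 in mLECs and 75.3, 69.7, 31.9 and 46.6 in meninges (log2 fold change 6.29, standard error 0.46, adjusted p = 0.000537). Selp, which encodes P-selectin, a protein of venous endothelium that captures leukocytes, had levels of 2216, 1056, 1788 and 1296 against 5.82, 2.99, 1.39 and 5.21 (log2 fold change 9.25, standard error 0.81, adjusted p = 0.000563). Rgcc, Ly6a and Ly6c1 had log2 fold changes of 2.99, 1.69 and 2.33, with no overlap between groups. Itm2a passed with overlapping groups (log2 fold change 1.97, standard error 0.64, adjusted p = 0.0411), since mLEC samples 1 and 3 stood at 254 and 260, and kept its call in 8 of 20 settings. Summed over the list, the level was 8613 to 10853 in mLECs and 926 to 1186 in meninges.

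The mLEC samples differed in which endothelial markers they held, and the genes of this paragraph other than Ccl21a were chosen after their values were seen. Sample 2 had Mfsd2a and Slco1c1, transporter genes of brain capillaries, at 102 and 104, while samples 1 and 3 had them at 0.05 or less. Sample 4 had Mfsd2a at 0 and Slco1c1 at 25.6, within the range of the meninges. Slco1a4, another transporter gene of brain capillaries, had levels of 74.8, 571, 59.4 and 101 over the 4 samples. Sample 2 in turn had the venous genes Sele and Ackr1 at 0.2 and 0.3, against 281 to 368 and 237 to 473 in the others, and Ccl21a at 3.54. Sample 2 also held Mbp, a myelin gene, at 255 and Ttr, a choroid plexus gene, at 563. Sample 4 had Rgs5, a pericyte gene, at 449 and Cd14, a monocyte gene, at 292. The part of these cell types in the results was not tested.

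The lymphatic list moved less uniformly than the endothelial lists. Of its 20 genes 17 were tested, of which 5 were higher and 1 lower, beside 5.14% and 31.6% of all tested genes. The median log2 fold change was -0.01, and it ran from -4.50 to 4.29 over other settings. The number of lower genes was 3 without mLEC sample 3, 3 without sample 4 and 7 with limma voom. Flt4, the VEGF-C receptor gene, had levels of 15.1, 34.4, 30.1 and 30.3 in mLECs and 1.36, 1.58, 1.09 and 1.05 in meninges (log2 fold change 4.67, standard error 0.53, adjusted p = 0.000563). Sox18, a transcription factor gene that acts upstream of Prox1, had levels of 307, 118, 388 and 267 against 11.3, 15.6, 5.8 and 8.26 (log2 fold change 4.96, standard error 0.56, adjusted p = 0.000563). In both genes every mLEC sample was above every meninges sample. Samples 2 and 4 had no reads of Pdpn or Lyve1, and Flt4 and Sox18 alone do not show that they held lymphatic cells. Klhl4 had levels of 36.6, 44.4, 15.8 and 34.6 against 1.22, 0.58, 1.17 and 0.65 (log2 fold change 5.35, standard error 0.72, adjusted p = 0.000585). Nrp2, which encodes the co-receptor for VEGF-C, had levels of 58.7, 19.1, 35.4 and 88.1 against 8.65, 5.89, 10.8 and 10 (log2 fold change 2.68, standard error 0.55, adjusted p = 0.00436). Mmrn1, which encodes a secreted protein of lymphatic endothelium, had levels of 126, 0.06, 98.4 and 19.7 against 1.61, 0.88, 1.93 and 1.72 (log2 fold change 5.60, standard error 1.70, adjusted p = 0.031). Sample 2 was below the meninges for Mmrn1 and the other 3 samples were above, and the call was kept in 10 of the 20 alternative settings. Ackr4, a scavenger receptor gene for CCL21, was at 0 in all 4 mLEC samples against 1.45, 1.77, 1.26 and 2.75, at least 18.2-fold lower when each library's floor is set at 3 counts (adjusted p = 0.000563).

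Ccl21a and Lyve1 did not pass the test. Ccl21a (ENSMUSG00000094686, chromosome 4 from 42772860 to 42773993, - strand) had levels of 6534, 3.54, 4208 and 0 in mLECs and 113, 169.8, 90 and 84.7 in meninges (log2 fold change 4.86, standard error 2.49, adjusted p = 0.199). Samples 1 and 3 were far above every meninges sample, and samples 2 and 4 below. Ccl21a has near-identical copies in the mouse genome, and reads shared with them make its level uncertain. Lyve1 had a log2 fold change of 0.92 (adjusted p = 0.842), whose direction turned in 5 of the alternative settings. The other members tested, Pdpn, Fxyd6, Nr2f2, Gata2, Maf, Thy1, Foxc2, Itga9 and Reln, did not pass. Foxc2, a transcription factor gene of lymphatic valves, had levels of 0, 0.02, 0.09 and 1.68 in mLECs, all under the 8.04 to 15.9 of meninges. Thy1 and Reln were above 0 in mLEC sample 3 alone, and Itga9, a valve integrin gene, in sample 4 alone. Stab2 and Ackr2 were too low to be tested.

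**Figure D2:**
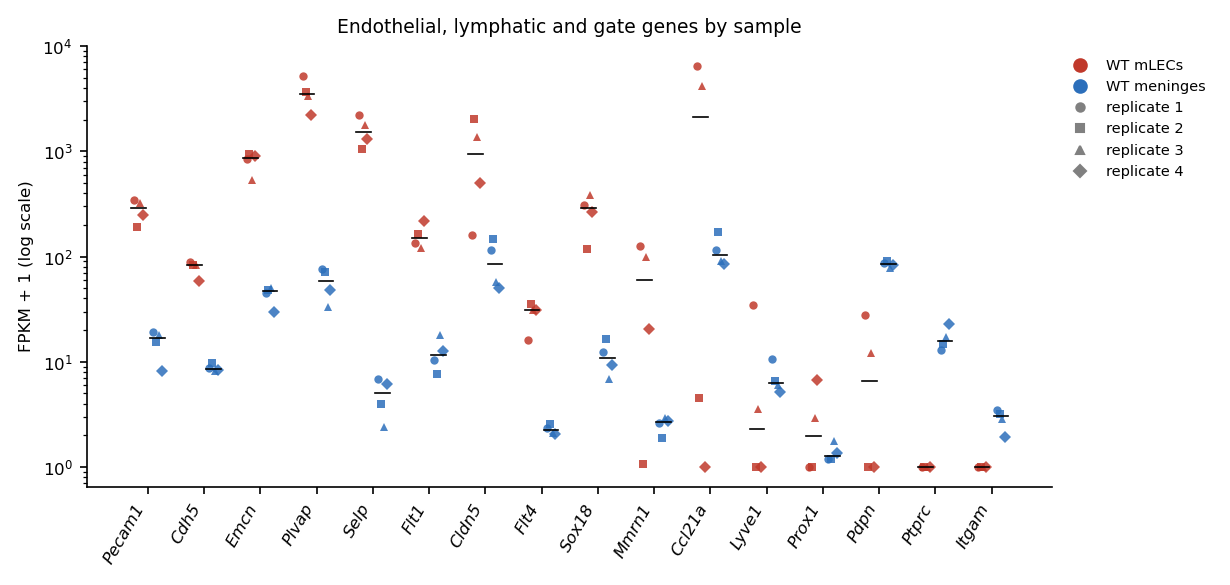
Levels of gate, lymphatic and blood endothelial genes in each of the 4 WT mLEC and 4 WT meninges samples, with each sample as a point, the group median as a line and FPKM + 1 on a log axis. Pecam1 and Flt4 separate the groups, while Pdpn, Lyve1 and Ccl21a spread over the mLEC samples from 0 upwards.

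Receptors of the growth factors that shape endothelium were higher in mLECs. In the list for VEGF, angiopoietin and adrenomedullin signalling, 18 of 23 genes were tested, with a median log2 fold change of 3.30. Of these, 11 were higher and 3 lower, beside 5.14% and 31.6% of all tested genes. Kdr, Tek, Tie1 and Ramp2 are also in the pan-endothelial list, Flt1 in the blood endothelial list, and Flt4 and Nrp2 in the lymphatic list. The counts of these lists are therefore not independent. Kdr, the main VEGF-A receptor gene, had levels of 204, 232, 39.8 and 146 in mLECs against 4.56, 3.96, 8.84 and 6.94. Flt1, which encodes a receptor for VEGF-A and VEGF-B, had levels of 135, 163, 119 and 217 against 9.3, 6.66, 17.1 and 11.8 (log2 fold change 4.07, standard error 0.37, adjusted p = 0.000563). Nrp1, a co-receptor gene, had levels of 109, 313, 43.1 and 263 against 33, 41.8, 41.1 and 39 (log2 fold change 2.47, standard error 0.58, adjusted p = 0.00939). The angiopoietin receptor gene Tek had levels of 15.8, 164, 74.2 and 132 against 4.63, 4.14, 4.04 and 3, with the lowest mLEC sample still above the meninges. Angpt2, a ligand of TIE2 made by endothelium, had levels of 189, 130.2, 25.1 and 27.8 against 8.28, 12.9, 8.7 and 6.71 (log2 fold change 3.66, standard error 0.82, adjusted p = 0.00688). Ramp3, which with the product of Calcrl forms an adrenomedullin receptor, had levels of 138, 283, 120.4 and 59.3 against 8.63, 5.46, 10.2 and 12.1 (log2 fold change 4.33, standard error 0.70, adjusted p = 0.00105). Ramp2, the partner that forms the other adrenomedullin receptor, had levels of 74.1, 221, 276 and 150.04 against 102, 161, 72.9 and 110.2 and did not pass. The remaining higher members were Flt4, Nrp2, Tie1, Adm and Calcrl, and the lower ones Vegfb, Adamts3 and Angpt1. The ligand gene Vegfc had levels of 0.02, 0, 55.2 and 117 in mLECs and 3.37, 2.24, 2.36 and 2.32 in meninges, high in mLEC samples 3 and 4 and at or near 0 in samples 1 and 2, and did not pass (adjusted p = 0.29).

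Genes of cell junctions were more often higher than lower. Of 18 tested, 8 were higher and 3 lower, beside 5.14% and 31.6% of all tested genes. Their median log2 fold change was 0.95, and it ran from -1.03 to 2.88 over other settings. Cldn5, the main claudin gene of endothelium, had levels of 159, 2048, 1363 and 503 in mLECs against 114, 147, 56 and 49.1. It was also counted in the pan-endothelial list. Ocln, another tight junction gene, had levels of 129, 132, 14.4 and 62.1 against 5.37, 5.71, 3.23 and 2.4 (log2 fold change 4.43, standard error 0.85, adjusted p = 0.00301). F11r, which encodes the junctional adhesion molecule A, had levels of 310.02, 121, 142 and 164 against 17, 28.5, 28.9 and 25.7 (log2 fold change 3.15, standard error 0.44, adjusted p = 0.000616). Jup, which encodes plakoglobin, and Gja1, which encodes the gap junction protein connexin 43, were higher by log2 fold changes of 2.32 and 2.17. Cldn11, a claudin gene of the arachnoid barrier and of myelin, had levels of 0, 2.7, 0.03 and 0 against 188, 185, 99.6 and 125 and was lower (log2 fold change -7.46, standard error 2.28, adjusted p = 0.0322), a call kept in 14 of the 19 settings that tested it. Cgn and Gja5 were the other lower members.

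Adhesion and chemokine genes through which endothelium handles leukocytes were among those with large differences. In the trafficking list 16 of 18 genes were tested, with a median log2 fold change of 1.80, or -0.35 to 2.84 over other settings. Of these, 5 were higher and 2 lower, beside 5.14% and 31.6% of all tested genes. Icam1, an adhesion receptor gene for leukocyte integrins, had levels of 2576, 1086, 3078 and 2465 in mLECs and 42.1, 27.9, 12.4 and 16.9 in meninges (log2 fold change 6.77, standard error 0.56, adjusted p = 0.000563). Vcam1, the gene of a second such receptor, had levels of 239.9, 111, 198 and 509 against 35.4, 23.1, 25.9 and 19 (log2 fold change 3.47, standard error 0.50, adjusted p = 0.000634). In both genes the groups did not overlap. Cxcl1, a neutrophil chemokine gene, had levels of 203, 154, 241 and 334 against 1.94, 0.57, 1.79 and 0.45 (log2 fold change 7.82, standard error 0.79, adjusted p = 0.000563). S1pr1, the sphingosine-1-phosphate receptor gene that keeps endothelial barriers tight, had levels of 288, 238, 265 and 402 against 55.4, 31.6, 48.5 and 52.5 (log2 fold change 2.89, standard error 0.27, adjusted p = 0.000563). Cx3cl1, the gene of a membrane-bound chemokine, overlapped between groups at 121, 65.7, 28.6 and 20.2 against 80.3, 37.8, 25.6 and 29.1 and did not pass. Cd274 was the other higher member, and Ackr4 and Ccl2 were lower.

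Genes that cells switch on within minutes of a stimulus, including tissue digestion, were higher almost throughout. Of the 20 immediate early and dissociation genes tested, 18 were higher and 0 lower, with a median log2 fold change of 4.53, and their summed level was 15410 to 29149 in mLECs against 1641 to 2492 in meninges. Hspa1a (ENSMUSG00000091971, chromosome 17 from 34969190 to 34972156, - strand), which encodes the inducible heat shock protein HSP70, had levels of 4689.8, 5205, 6735 and 6119 in mLECs and 9.66, 5.51, 4.22 and 5.92 in meninges (log2 fold change 10.05, standard error 0.36, adjusted p = 4.41e-05). Hspa1b, a near-identical copy whose reads can be split with those of Hspa1a, had levels of 21.8, 35.6, 128 and 65 against 0.72, 0.48, 1.29 and 0.94 (log2 fold change 6.43, standard error 0.83, adjusted p = 0.000563), and the levels of each copy are uncertain. Fos, a subunit gene of the AP-1 transcription factor, had levels of 1388, 2323, 2991 and 1384 against 32.5, 34.5, 32.7 and 43.8 (log2 fold change 6.07, standard error 0.36, adjusted p = 0.000341). Junb, another AP-1 subunit gene, had levels of 1829.8, 4445, 3699 and 2068 against 111, 46.1, 94.8 and 163 (log2 fold change 5.11, standard error 0.52, adjusted p = 0.000563). Dusp1, which encodes a phosphatase that switches off stress kinases, had levels of 1031, 2994, 1817 and 1504 against 116, 60.1, 72 and 109 (log2 fold change 4.67, standard error 0.43, adjusted p = 0.000563). Nfkbia, which encodes the inhibitor of NF-kappa B, had levels of 1783, 3867, 6358 and 1652 against 222, 121, 253 and 264 (log2 fold change 4.25, standard error 0.54, adjusted p = 0.000563). In these genes all 4 mLEC samples lay above all 4 meninges samples. Hsp90aa1, a heat shock gene that is high at rest, had levels of 694, 549, 766 and 908 against 985, 1120.3, 1385 and 1211 and did not pass (adjusted p = 0.22), and Jund was the other member that did not. Digestion, sorting and the group cannot be told apart here.

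Promoters are shown for some of the genes that rose. A reader can see in them heat shock and cyclic AMP response motifs, and how alike the HSP70 copies are. They are the 250 bases before the RefSeq start of each gene on GRCm38.p6, 5′ to 3′ on the gene's strand, with the motif in capitals. The motifs were chosen after values were seen, both strands were searched, and a match is a description and not a binding site. The letters GAANNTTC are shown for Hspa1a (chr17:34972157-34972406, - strand) and Hspa1b (chr17:34959239-34959488, - strand), and TGACGTCA for Dusp1 (chr17:26508473-26508722, - strand) and Ppp1r15a (chr7:45526269-45526518, - strand). An NF-kappa B motif is shown for Cxcl1 (chr5:90890995-90891244, + strand).
Hspa1a: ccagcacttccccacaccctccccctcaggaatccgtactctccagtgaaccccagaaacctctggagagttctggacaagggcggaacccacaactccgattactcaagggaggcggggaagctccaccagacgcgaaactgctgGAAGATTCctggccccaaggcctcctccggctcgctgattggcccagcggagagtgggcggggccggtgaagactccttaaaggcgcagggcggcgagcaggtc
Hspa1b: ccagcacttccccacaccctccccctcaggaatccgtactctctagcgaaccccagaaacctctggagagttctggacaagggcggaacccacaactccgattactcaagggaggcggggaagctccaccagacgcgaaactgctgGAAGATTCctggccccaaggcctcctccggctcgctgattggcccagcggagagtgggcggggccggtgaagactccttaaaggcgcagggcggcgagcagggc
Dusp1: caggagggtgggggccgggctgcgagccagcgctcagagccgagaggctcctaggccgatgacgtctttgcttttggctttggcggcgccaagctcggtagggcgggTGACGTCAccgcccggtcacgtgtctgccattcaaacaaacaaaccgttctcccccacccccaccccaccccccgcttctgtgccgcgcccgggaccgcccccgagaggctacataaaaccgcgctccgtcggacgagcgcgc
Ppp1r15a: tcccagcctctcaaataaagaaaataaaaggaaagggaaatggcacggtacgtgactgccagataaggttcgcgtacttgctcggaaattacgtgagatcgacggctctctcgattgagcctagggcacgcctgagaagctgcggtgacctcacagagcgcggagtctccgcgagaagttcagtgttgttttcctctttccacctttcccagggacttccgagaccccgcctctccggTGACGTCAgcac
Cxcl1: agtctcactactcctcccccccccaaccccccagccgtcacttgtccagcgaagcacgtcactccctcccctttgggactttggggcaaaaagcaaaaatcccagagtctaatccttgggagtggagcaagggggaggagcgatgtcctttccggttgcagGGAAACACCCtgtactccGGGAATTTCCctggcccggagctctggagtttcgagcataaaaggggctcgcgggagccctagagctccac

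The windows of Hspa1a and Hspa1b were identical at 247 of 250 positions and hold GAANNTTC at the same place, beginning 104 bases before the start. Of the immediate early list 17 genes matched a promoter, and the shares below are of these 17. Ppp1r15a and Cxcl1, shown above, are not in that list, and their motifs are not part of these shares. GAANNTTC occurred in 3 of the 17, Jun, Hspa1a and Hspa1b (17.6%), against 7.73% of all 27018 promoters and 6.15% of those of tested genes. Hspa1a and Hspa1b are near-identical copies, so their matches are not independent. TGACGTCA occurred in 2, Btg2 and Dusp1 (11.8%), against 1.77% and 2.99%. The NF-kappa B motif occurred in 1, Nfkbia (5.88%), against 1.65% and 1.69%, and the CArG box likewise in 1 (5.88%), against 1.62% and 1.43%. The AP-1 letters TGANTCA occurred in 0 of the 17, against 7.82% and 5.65%.

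The genes with the largest rises overlapped with that list and added inflammatory ones. Csf3 (ENSMUSG00000038067, chromosome 11 from 98701263 to 98703629, + strand), which encodes the granulocyte growth factor G-CSF, had levels of 2138, 749, 542 and 483 in mLECs and 1.03, 0, 0.08 and 0 in meninges (log2 fold change 11.94, standard error 1.83, adjusted p = 0.000818). Ptgs2, which encodes the prostaglandin enzyme COX-2, had levels of 484, 114, 231 and 639 against 3.35, 1.35, 3.36 and 3.58 (log2 fold change 7.19, standard error 0.69, adjusted p = 0.000563). Each mLEC sample lay far above each meninges sample in both genes. Sox7, an endothelial transcription factor gene, had levels of 228, 176, 312 and 261 against 1.26, 1.57, 1.78 and 2.59 (log2 fold change 7.32, standard error 0.40, adjusted p = 0.00031). Ets1, another endothelial transcription factor gene, had levels of 304, 274, 193 and 281 against 4.9, 3.63, 3.64 and 3.3 (log2 fold change 6.43, standard error 0.30, adjusted p = 0.000124). Ppp1r15a, which encodes a stress-induced phosphatase subunit that restores translation, had levels of 746, 2407, 1605 and 1473 against 33.1, 19, 27.5 and 45.9 (log2 fold change 6.12, standard error 0.43, adjusted p = 0.00052). The others of the 20 were Hspa1a, Hspa1b, Selp, Cxcl1, Icam1, Plvap, Fosl1, Rnd1, Adamts4, Map3k8, Fosb, Plk2, Iigp1, Saa3 and Atf3, and of these the last 9 had log2 fold changes of 7.75, 7.57, 7.21, 7.18, 6.71, 6.46, 6.42, 6.22 and 6.15.

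**Figure D3:**
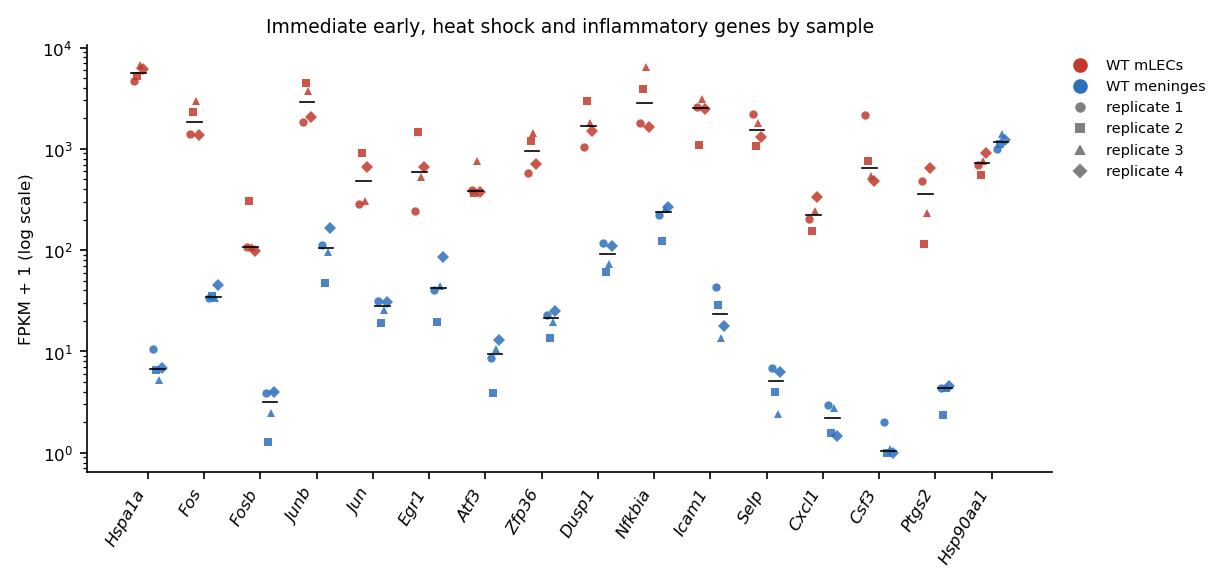
Levels of immediate early, heat shock and inflammatory genes in each WT mLEC and WT meninges sample, with FPKM + 1 on a log axis, each sample as a point and the group median as a line. Hspa1a lies between 4689.8 and 6735 in the mLEC samples and under 10 in the meninges.

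Most fibroblast genes were lower in mLECs. Of 20 meningeal fibroblast genes tested, 18 were lower and 0 higher, with a median log2 fold change of -13.17, or -10.32 with the genes at 0 set to their bound, and 12 were at 0 in all mLEC samples. All 20 entered the test through the meninges and 2 reached the same level in mLECs, so these counts are a description of genes that were high in meninges. Igfbp2, which encodes a binding protein for insulin-like growth factors, was at 0 in mLECs against 369, 595, 548 and 584 in meninges, at least 3710-fold lower (adjusted p = 0.000563). Islr was at 0 against 303, 277, 137 and 219, at least 2670-fold lower (adjusted p = 0.000563). Col1a2, a chain of type I collagen, had levels of 0, 0, 0.01 and 0 against 279.7, 206, 333 and 269, and passed the test. Mgp, which encodes a matrix protein that blocks calcification and is also made by endothelium, kept levels of 1939, 838, 1597 and 1291 against 11078, 13422, 7571 and 8841 (log2 fold change -2.60, standard error 0.31, adjusted p = 0.000563). Dcn, which encodes the proteoglycan decorin, had levels of 227, 185, 72.7 and 232 against 694, 585, 375 and 573 (log2 fold change -1.39, standard error 0.40, adjusted p = 0.0236), a call kept in 12 of 20 settings. These 2 genes made up most of the summed fibroblast level of 1023 to 2165 in mLECs, against 10213 to 16734 in meninges.

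Mural genes, of pericytes and smooth muscle, gave 5 lower and 0 higher of 13 tested, a share near the 31.6% of all tested genes, with a median of -3.51. Of the 13, 1 passed the FPKM filter in mLECs. Vtn, which encodes vitronectin, was at 0 in mLECs against 272, 336, 388 and 231, at least 2900-fold lower (adjusted p = 0.000563). Acta2 and Tagln, smooth muscle genes, had levels of 0.02, 0.15, 42.4 and 0 and of 23.5, 0.04, 19 and 0.28 in mLECs, each below the meninges, and did not pass. Rgs5 and Kcnj8 overlapped between groups because of mLEC sample 4. Without mLEC sample 3 the number of lower mural genes was 9 instead of 5.

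**Figure D4:**
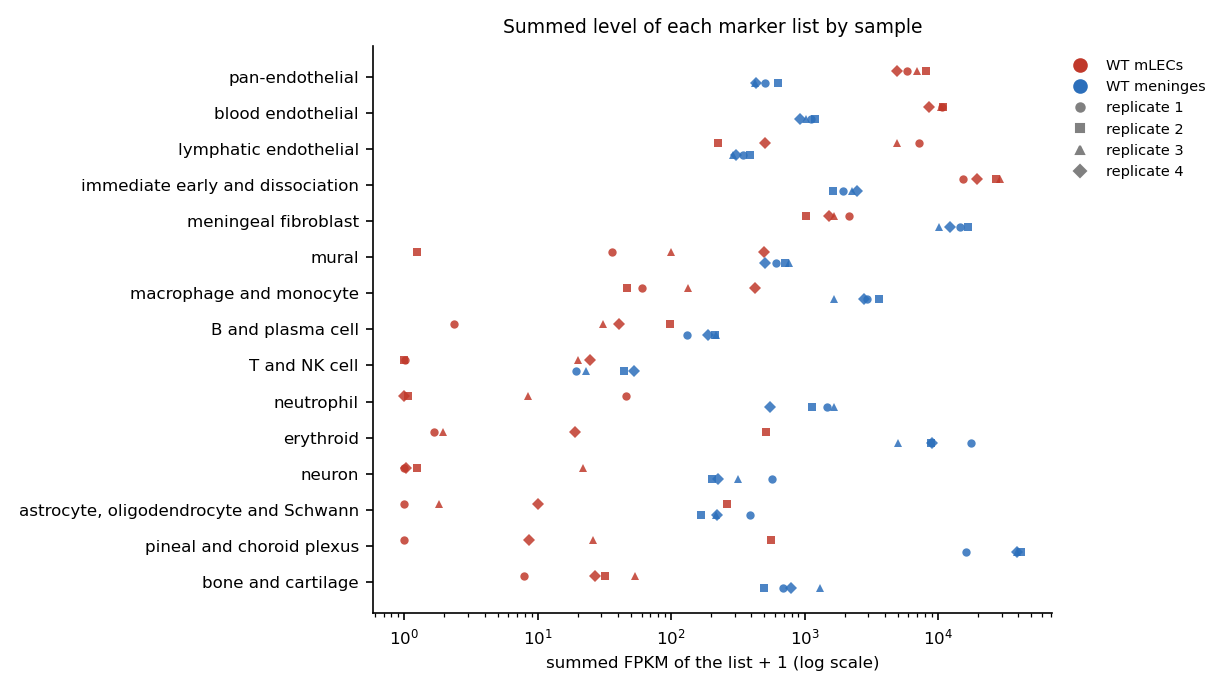
Summed FPKM of each cell type list in each WT mLEC and WT meninges sample, with 1 added, on a log axis with each sample as a point. The pan-endothelial and blood endothelial lists are higher in all mLEC samples, the fibroblast and macrophage lists lower, and the lymphatic list lies on both sides of the meninges.

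Many leukocyte and blood genes were lower in the sorted cells, and nearly all of those tested passed the FPKM filter through the meninges alone. The sort also left out cells positive for CD45, the pan-leukocyte protein. The counts here are therefore a description of genes that were high in meninges. Macrophage genes gave 6 lower and 0 higher of 16 tested, a share near the 31.6% of all tested genes. For 14 of them every mLEC sample was below every meninges sample, where 44.3% of all tested genes were. C1qa, a complement gene of macrophages, was at 0 against 324, 377, 193 and 393, at least 1820-fold lower (adjusted p = 0.000563). Tyrobp, a myeloid signalling adaptor gene, was at 0 against 306, 440.2, 213 and 359, at least 1030-fold lower (adjusted p = 0.000563). Lyz2, C1qb, C1qc and Pf4 were each above 1 in 1 or 2 mLEC samples and did not pass. The summed macrophage level was 45.8 to 422 in mLECs, highest in sample 4, against 1659 to 3625 in meninges. Neutrophil genes gave 11 lower of 12, T and NK cell genes 6 of 7, B and plasma cell genes 5 of 7 and erythroid genes 4 of 6, with 0 higher in each of these lists. Without mLEC sample 1 there was 1 higher B and plasma cell gene. S100a8, a neutrophil gene, was at 0 against 685, 588, 811 and 292, at least 1570-fold lower (adjusted p = 0.000563). The globin gene Hba-a2 had levels of 0.48, 208, 0.72 and 0 against 5717, 2988, 1772 and 3353 and did not pass, with sample 2 the only one above 1. Without mLEC sample 2, 6 of the 6 erythroid genes were lower.

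Whole meninges also held transcripts of neighbouring tissue, of which the sorted cells had less or, in single samples, some. All 10 pineal and choroid plexus genes tested were lower, where 31.6% of all tested genes were. All 10 passed the FPKM filter in the meninges and 1 of them in mLECs. This count is therefore a description of genes that were high in meninges. Ptgds, an abundant enzyme gene of arachnoid and choroid plexus, had levels of 0, 0.07, 0 and 0 in mLECs and 14404, 17567, 20262 and 18616 in meninges, and it passed the test. Tph1, the serotonin synthesis gene of the pineal gland, was at 0 against 471, 314, 189.7 and 187, at least 3600-fold lower (adjusted p = 0.000563). Ttr, the choroid plexus gene of transthyretin, had levels of 0, 563, 24.8 and 7.56 against 15349, 41237, 38074 and 38391 (log2 fold change -7.50, standard error 2.40, adjusted p = 0.0398), a call kept in 12 of 20 settings. Of 8 neuronal genes 5 were lower, of 9 glial and Schwann cell genes 7, and of 8 bone and cartilage genes 6, with 0 higher in each. Of these 3 lists, 1 gene passed the FPKM filter in mLECs. Snap25, a synaptic gene, was at 0 against 319, 139, 196 and 143, at least 1900-fold lower (adjusted p = 0.000563). Without mLEC sample 3, 8 neuronal genes were lower instead of 5. Bglap, which encodes the bone protein osteocalcin, was at 0 in mLECs against 122, 87.5, 548 and 260.2 (adjusted p = 0.00126). Alpl, an alkaline phosphatase gene of bone, was lower but present in all mLEC samples, at 6.85, 31, 16.5 and 25.8 against 143, 134, 73.4 and 138 (log2 fold change -2.38, standard error 0.55, adjusted p = 0.00788). Ctsk and Acp5, osteoclast genes, were above 0 in mLEC sample 3 alone, at 8.49 and 27.2, and did not pass. Of the glial genes, Mbp overlapped between groups and Slc1a3 stood at 9.1 in mLEC sample 4, and neither passed. Of the 20 genes with the largest falls, 18 were at 0 in every mLEC sample.

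Part of the genes of the respiratory chain and the ribosome were lower in mLECs. Over all tested genes 31.6% were lower. In the main test the medians of the nuclear respiratory and ribosomal lists lay near that of all genes, which depended on the setting. With a mean FPKM of at least 5 the nuclear respiratory median was -1.42 against -0.23, and with the replicate block -1.68 against -5.9. Of 75 nuclear genes encoding respiratory chain or ATP synthase subunits, 33 were lower and 0 higher, with a median log2 fold change of -1.44 beside -1.29 over all tested genes. Among genes detected in both groups, where the median was 0.24, 36 of 71 such genes were lower and their median was -1.78. Cox8a, a cytochrome c oxidase subunit gene, had levels of 245, 151, 328 and 148 in mLECs and 1581, 1983, 1403 and 1914 in meninges (log2 fold change -2.72, standard error 0.36, adjusted p = 0.000577). Ndufa4, also of that complex, had levels of 148, 254, 175 and 175 against 927, 1256, 1024 and 1363 (log2 fold change -2.20, standard error 0.32, adjusted p = 0.000637). Cox4i1 and Cox6b1 were lower by log2 fold changes of -1.61 and -1.22, and Cox6a1 and Uqcr11 did not pass. The call of Cox6b1 was kept in 9 of 20 settings. Of the 13 genes that the mitochondrial genome encodes, 9 were lower, with a median of -2.40. mt-Co2 had levels of 847, 910.3, 529 and 2069.8 against 6118, 6733, 7397 and 6181 (log2 fold change -2.40, standard error 0.35, adjusted p = 0.000668), and mt-Co3 and mt-Nd1 were lower by -2.01 and -2.85. mt-Atp6, mt-Cytb and mt-Co1 overlapped between groups and did not pass. Of 78 cytosolic ribosomal protein genes, 31 were lower and 0 higher, with a median of -1.41. Among genes detected in both groups, 39 of 77 ribosomal protein genes were lower, with a median of -1.79, near that of the nuclear respiratory list. Rpl41 was lower (log2 fold change -2.07, standard error 0.44, adjusted p = 0.00541) and so was Rplp1 (log2 fold change -1.96, standard error 0.57, adjusted p = 0.0253), the latter in 13 of 20 settings, while Rps14, Rps27 and Rpl13 did not pass. The nuclear count fell from 33 to 20 without meninges sample 3 and to 17 without sample 4, and the ribosomal count from 31 to 20 without mLEC sample 4, to 19 without meninges sample 1 and to 12 without meninges sample 4. Without mLEC sample 4, 2 ribosomal protein genes were higher.

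**Figure D5:**
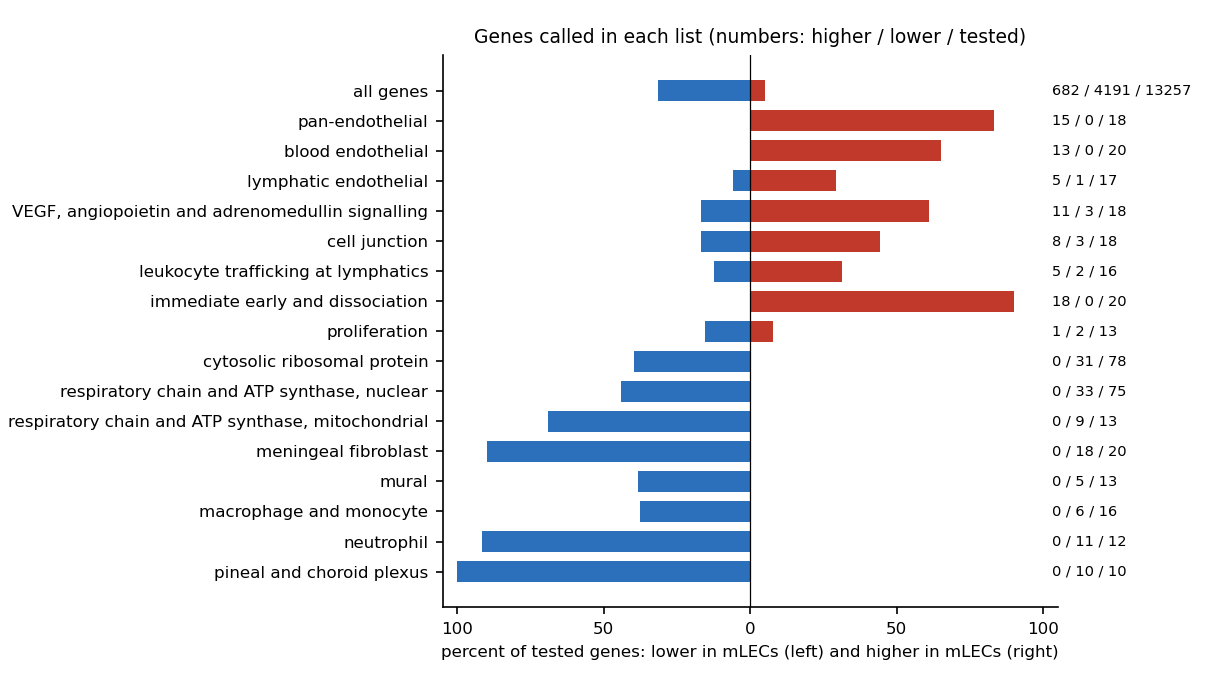
Percent of the tested genes of each list called lower (blue bars, to the left of 0) and higher (red bars, to the right) in WT mLECs against WT meninges, with the numbers called higher, called lower and tested at the right. The pan-endothelial and immediate early lists are mostly higher, and the fibroblast, neutrophil and pineal and choroid plexus lists mostly lower.

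Of the 21 genes that the study names in its RNA-seq, 16 were tested. Among these, 3 were higher and 3 lower, beside 5.14% and 31.6% of all tested genes. Calm2, a calmodulin gene, had levels of 2386, 844, 1199.9 and 2191 in mLECs and 719.6, 529.6, 395 and 353 in meninges (log2 fold change 1.86, standard error 0.40, adjusted p = 0.00534). Pecam1, used in the gate, and Ocln were the other higher genes. Cox7c, a cytochrome c oxidase subunit gene, had levels of 86.2, 92.9, 115 and 114 against 474, 575, 350.5 and 637 (log2 fold change -2.08, standard error 0.37, adjusted p = 0.00197). Atp5pb, an ATP synthase subunit gene, had levels of 75.7, 92.4, 71.4 and 38.6 against 280.3, 271, 229 and 207 (log2 fold change -1.54, standard error 0.41, adjusted p = 0.0171), a call kept in 14 of 20 settings. Nckap1l, an actin regulator gene of blood cells, was at 0 against 4.41, 4.19, 3.37 and 1.93, at least 88.9-fold lower (adjusted p = 0.00059). Iscu, Cdc42, Cox17, Immt, Nck1, Vegfc, Mfn2, Tgfa, Lyve1 and Pcdhgb6 did not pass. Proliferation genes gave 1 higher and 2 lower of 13 tested, beside 5.14% and 31.6% of all tested genes, with a median of 0.50. The higher one was Pcna, a DNA replication gene, with levels of 71, 53.2, 108 and 143 against 53.7, 43.6, 22.2 and 30.5 (log2 fold change 1.53, standard error 0.52, adjusted p = 0.0498), a call kept in 6 of 20 settings. The number of lower proliferation genes was 7 without mLEC sample 3, 4 without mLEC sample 4 and 1 without each of the other 6 samples.

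The same contrast was made in 5xFAD mice, which carry transgenes, mutated human APP among them, under the Thy1 promoter, untreated or treated with 808 nm light, with 3 mLEC and 3 meninges samples each. In untreated 5xFAD mice 1056 genes were higher (8.3%) and 3516 lower (27.6%) of 12717 tested, and in light-treated 5xFAD mice 845 (6.7%) and 4179 (33.2%) of 12605. Of the 682 genes higher in WT, 502 were higher in untreated 5xFAD mice, which is 73.6% of the WT list and 47.5% of the other. In light-treated mice 451 were, which is 66.1% and 53.4%. All 3 contrasts shared 402 higher genes (58.9% of the WT list) and 1772 lower genes (42.3%). Pecam1 levels in mLECs were 238 to 398 in untreated and 212 to 269 in light-treated 5xFAD mice. Ccl21a was detected in all of these samples, at 998 to 4344 and 2896 to 9356, where the WT samples ran from 0 to 6534. Lyve1 stood at 2.96 to 12.2 and 16.5 to 89.2, and Hspa1a at 1982 to 2713 and 499 to 2508. The difference between untreated 5xFAD and WT mice in the mLEC to meninges contrast passed for 21 of 14512 genes (0.145%), and 2262 had an unadjusted p below 0.05. That count was 456 without WT mLEC sample 3 and 413 without the 5xFAD mLEC sample numbered 4.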

How the data were processed

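RNA-seq was compared between 4 WT mLEC and 4 WT meninges samples, grouped by their labels. The authors filtered reads with fastp, quantified genes with RSEM and deposited expected counts, without normalization, and FPKM values, which RSEM scales by transcript length and library size. The submitters' processing notes list HISAT2, StringTie, Trimmomatic, DESeq2 and mm10, without saying for which files. The mLEC and meninges samples are in separate tables, which were joined by gene identifier over the 22337 genes found in both. The gene symbols were equal in both tables for 15451 of these, and symbols were taken from the mLEC table. Rounded counts were normalized by TMM and compared by the quasi-likelihood test of edgeR 4.0.16 (R 4.3.3) for the 13257 genes that reached an FPKM of 1 in 3 or more of the 8 samples, with Benjamini-Hochberg adjustment of p-values over these genes. A gene was called at an adjusted p under 0.05 and a 2-fold difference. Positions come from GENCODE vM21 (GRCm38), and promoters from RefSeq. A gene at 0 in all mLEC samples was given a bound from a floor of 3 counts per library, which covers counting error only. Steps were tested on simulated data. Alternatives were other scalings, filters and tools (DESeq2 1.42.0, limma 3.58.1 with voom or on log2(FPKM + 1) or log2(FPKM + 0.1)), a fit of all 20 mLEC and meninges samples, the replicate number as a block, and leaving out each sample.

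The samples, lists and alternatives were chosen with earlier results of these data known. By rule, the genes named were the sort gate genes, all lymphatic and pan-endothelial genes, up to 6 genes of each list with the highest mean FPKM, up to 20 genes with the largest change in each direction (called, groups not overlapping, mean FPKM of at least 10 in the higher group, no Gm or Rik symbols), and the genes the study names. The text gives a selection of these, uncalled ones included. Slco1a4, Mfsd2a, Slco1c1, Sele, Ackr1 and Cd14 were added after their values were seen, as were list members given only by their call. Between replicates, the chi-square per degree of freedom was 797 to 1860 in mLECs and 26.1 to 74.8 in meninges, above counting error.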

Additional observations from a re-analysis of the deposited data

Results flagged for a closer look

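The named genes and 3 measures of library quality gave 424 groups of 4 samples, and in 49 of them 1 sample stood apart from the other 3, with a gap to its neighbour, as a share of the range of the group, above the 95% critical value of the Dixon test (on the log2(FPKM + 1) scale for genes). That critical value gives about 1 in 20 groups by chance only for normally distributed values. Many of the 49 are genes with reads in 1 mLEC sample alone. Such a group has a share of 1 whatever its level, so the 49 are not read against chance. The mLEC sample 1 was the high one in FPKM for C1qc at 59.2. The mLEC sample 1 was the low one in FPKM for Flt4 at 15.1. The mLEC sample 2 was the high one in FPKM for Esam at 756, Hba-a2 at 208, Hba-a1 at 209.6, Syt1 at 0.23, Mbp at 255, Cldn11 at 2.7, Fosb at 304, Ptgds at 0.07 and Mfsd2a at 102. The mLEC sample 2 was the low one in FPKM for Nck1 at 0.19, Sele at 0.2 and Ackr1 at 0.3. The mLEC sample 3 was the high one in FPKM for Thy1 at 13.3, Reln at 1.14, Stab2 at 0.1, Igf2 at 0.27, Col1a2 at 0.01, Acta2 at 42.4, C1qb at 40.3, Tubb3 at 8.92, Stmn2 at 10.7, Slc17a7 at 1.16, Ctsk at 8.49, Acp5 at 27.2, Birc5 at 21.8, Mcm2 at 14.7, Mcm5 at 16.1, Pcdhgb7 at 4.62 and Atf3 at 765. The mLEC sample 4 was the high one in FPKM for Foxc2 at 1.68, Itga9 at 4.41, Pf4 at 14.1, Cd79a at 12, Slc1a3 at 9.1 and Pcdhgb6 at 12.6. The mLEC sample 4 was the low one in FPKM for Cdh5 at 57.3. The meninges sample 1 was the high one in FPKM for Mcm5 at 4.56, Vegfc at 3.37, Csf3 at 1.03, Plk2 at 12.9 and Atp1b1 at 306. The meninges sample 1 was the low one in FPKM for Igfbp2 at 369, Ttr at 15349 and Folr1 at 164. The meninges sample 2 was the low one in FPKM for Ptgs2 at 1.35. The meninges sample 3 was the low one in FPKM for Rgcc at 78 and Alpl at 73.4. The mLEC to meninges difference depended on genotype, untreated 5xFAD against WT, for 21 genes by an interaction term in edgeR (adjusted p below 0.05 and at least 2-fold). The causes of these values were not tested.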

How the results depend on the processing

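Of the 195 tested genes that the naming rule gives, 135 were called, 116 of these kept their call in each of the 20 alternatives that tested them, 19 lost it in at least 1, and 0 changed direction. Of the 60 not called, 22 stayed so in each alternative and 21 changed direction in at least 1. Over all tested genes, 0 calls turned to the opposite direction. The 682 higher genes numbered 373 with the replicate number as a block and 441 with an FPKM of at least 1 in each group. The 4191 lower genes numbered 7338 with a count above 0 as the filter, 1136 with a mean FPKM of at least 5, 7024 with limma voom and 191 with an FPKM of at least 1 in each group, the last chosen after seeing the data. The filters change which genes are tested, and for the others the cause was not tested. Leaving out each sample gave 519 to 863 higher and 3929 to 5524 lower genes. In untreated 5xFAD mice 7864 genes were called with a count above 0 as the filter, 575 with the block and 3818 to 5831 without each sample in turn. In light-treated mice these were 8312, 315 and 4350 to 6515. The light-treated fit with the block used only samples whose number occurs in both tissues. It therefore held fewer samples than the main fit, and its count does not show the effect of the block alone. The dependence on genotype passed for 1470 genes with DESeq2, for 0 with limma voom (1044 at an unadjusted p below 0.05) and for 5 to 456 without each sample in turn. Lyve1 turned lower, with log2 fold changes of -4.50 with the block, -4.16 with voom and -1.04 and -2.60 with limma on log2(FPKM + 1) and log2(FPKM + 0.1), and ran from -2.60 to 1.63 without each sample in turn. Ccl21a had -0.09, -1.55, -0.07 and -0.97 in the first 4 of these, and Vegfc -1.09 and -1.07 with the block and voom. Same-numbered samples did not deviate together, with correlations of 0.032, -0.051, -0.082 and -0.011. Given the spread between mLEC samples, these values cannot decide whether the numbers pair the samples. The main test did not pair them. The spread between mLEC samples and the genes at 0 in them limit what these samples can show.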

Other observations

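Gene groups from the KEGG column of the deposited tables, chosen after values were seen, were counted in the same test, in which 5.14% of all tested genes were higher and 31.6% lower. Of 101 genes of TNF signaling, 26 were higher and 15 lower in mLECs, and the median log2 fold change was 0.81, where that of all tested genes was -1.29. Of 121 genes of NF-kappa B signaling, 12 were higher and 52 lower. Of 155 genes of protein processing in the endoplasmic reticulum, 15 were higher and 22 lower. Of 92 genes of leukocyte transendothelial migration, 16 were higher and 26 lower, the latter a share near that of all genes. Of 40 genes of the complement and coagulation cascades, 7 were higher and 17 lower.

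The 100 highest genes took 33.85 ± 1.69% of the counts in mLECs (SD, n = 4) and 26.1 ± 1.23% in meninges (SD, n = 4), a difference of 7.75 percentage points (exact two-sided permutation test, p = 0.0286, the smallest that this design can give). With each sample thinned to the smallest total, the number of genes with a count was 6759.75 ± 1680 in mLECs and 18101.2 ± 1160 in meninges (SD, n = 4).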
